A study of Homo sapiens with 8 samples.

Results

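LIN28B and 7 further genes of the fetal-type growth and blood program were followed in 2 T-cell acute lymphoblastic leukemia (T-ALL) cell lines: LIN28B itself, the RNA-binding proteins IGF2BP1, IGF2BP2 and IGF2BP3, the chromatin proteins HMGA1 and HMGA2, and the transcription factors ARID3A and BCL11A. These 8 genes, out of 64252 in the count tables, were listed by symbol, and they were selected on the measured counts of these same libraries, in which LIN28B is found in 6T-CEM only. Levels between the lines are therefore given as a description with no test, and tests are given for the change with LDB1 knockdown.

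The study asked what the LIM-domain binding protein LDB1, a partner that brings enhancers and promoters together, does in T-ALL cells. RNA was sequenced from 6T-CEM cells, a derivative of the CEM line, and from J.gamma1 cells, a derivative of the Jurkat line that lacks the signalling enzyme PLCG1, each with a control short hairpin RNA (sh-NC, labelled shControl) or a hairpin against LDB1 (sh-LDB1), in 2 libraries per group and 8 in all. Hairpins were delivered by lentivirus with puromycin selection, so every group carries a hairpin vector, and the labels do not say which of the study's LDB1 hairpins was used. Nor do they say that replicates were separate cultures, so p-values measure the spread between these libraries, which may be technical.

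LIN28B and its paralog LIN28A bind the precursors of the let-7 microRNAs and block their maturation, which keeps let-7 low in embryonic and fetal cells. The let-7 microRNAs in turn bind messages of growth genes through their seed, the bases 2 to 8 of the mature RNA, and many of these messages encode oncofetal proteins, among them LIN28B itself, the IGF2BP family and HMGA2. In blood, LIN28B marks fetal-type progenitors, while BCL11A silences the fetal globin genes in adult red cells and also acts in lymphoid development.

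The let-7 seed is shown first because it is what links most of these genes. In RefSeq, 9 mature RNAs from 12 loci carried the same seed, GAGGUAG, printed here in capitals in let-7a, in let-7g, in let-7e and in miR-98, whose remaining bases differ.
hsa-let-7a-5p: uGAGGUAGuagguuguauaguu
hsa-let-7g-5p: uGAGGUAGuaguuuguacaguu
hsa-let-7e-5p: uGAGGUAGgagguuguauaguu
hsa-miR-98-5p: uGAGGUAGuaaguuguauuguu

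The letters that pair with this seed, CTACCTC read on the sense strand, occurred 17 times in the canonical 3′ UTRs of 7 of the 8 genes (GENCODE release 44, GRCh38). LIN28B, IGF2BP1 and HMGA2 held 4 matches each, ARID3A held 2, IGF2BP2, IGF2BP3 and HMGA1 held 1 each, and the 3210-base 3′ UTR of BCL11A held no match. Among 19170 genes with a 3′ UTR, 1880 (9.8%) held at least 1 match and 36 (0.19%) held 3 or more. The 8 genes were listed as LIN28B, let-7 targets and fetal blood genes, so their matches follow in part from that choice. These shares are a description and no test of enrichment. The match nearest the stop codon is given for each gene with its site in capitals and 10 bases on either side. It lay 44 bases after the stop codon of LIN28B (chr6:105078827-105078833, plus strand), 1632 after that of IGF2BP1 (chr17:49051076-49051082, plus), 1304 after that of IGF2BP2 (chr3:185644221-185644227, minus), 560 after that of IGF2BP3 (chr7:23311796-23311802, minus), 960 after that of HMGA1 (chr6:34245844-34245850, plus), 21 after that of HMGA2 (chr12:65963313-65963319, plus) and 2461 after that of ARID3A (chr19:974526-974532, plus).
LIN28B: gttgcaaagtCTACCTCatgcaagtat
IGF2BP1: gcgaagtaaaCTACCTCaaggtatgaa
IGF2BP2: acagaagaagCTACCTCaggtgttttt
IGF2BP3: ttttactcaaCTACCTCaggtattcag
HMGA1: tgttcacaaaCTACCTCtggacagttg
HMGA2: cgttcgatttCTACCTCagcagcagtt
ARID3A: ctatctctgtCTACCTCaggtctgact

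In 6 of these 7 sequences the match is followed by A, the letter of the longer form of a microRNA seed site. In HMGA1 it is followed by t. Counting all matches, A followed 2 of 4 in LIN28B, 3 of 4 in IGF2BP1, 1 of 4 in HMGA2 and 1 of 2 in ARID3A. A match is a description of the letters, not a measured site, and mature let-7 is not measured by these libraries of messenger RNA.

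**Figure D1:**
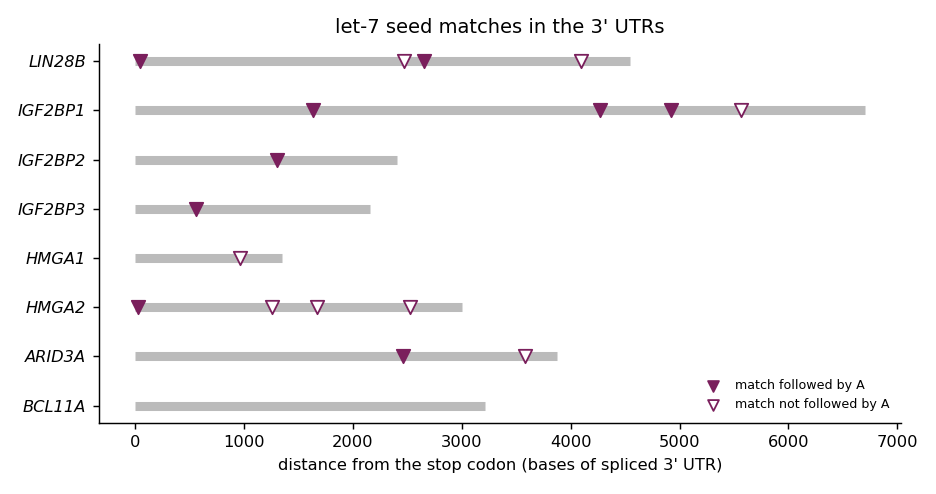
Matches to the let-7 seed along the spliced 3′ UTR of each gene, by distance from the stop codon in bases; grey bars show the length of the 3′ UTR, filled triangles a match followed by A and open triangles other matches. LIN28B, IGF2BP1 and HMGA2 carry 4 matches each and BCL11A carries none.

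The targeted gene and the markers were checked before the members. LDB1 had 2777 and 2996 counts in 6T-CEM sh-NC and 1078 and 1000 in sh-LDB1, and 1909 and 1854 in J.gamma1 sh-NC against 929 and 906 in sh-LDB1. With edgeR's quasi-likelihood test its log2 fold change was −1.60 (SE 0.071, adjusted p = 1.02e-09) in 6T-CEM and −0.89 (SE 0.075, adjusted p = 3.68e-06) in J.gamma1. Libraries held between 26160492 and 30604977 counts. All 9 T lineage markers were above 3 counts in every library, and their summed level in CPM (counts scaled to a common library size) was 1770 and 1870 in sh-NC and 2320 in both sh-LDB1 libraries of 6T-CEM, and 2330 in both sh-NC and 3150 in both sh-LDB1 libraries of J.gamma1. The markers of myeloid cells summed to at most 2.83 CPM, of epithelium or kidney to 4.42, of fibroblasts to 9.81 and of B cells to 79.1 in any library, and their part in the results was not tested. The erythroid markers ALAS2, SLC4A1, AHSP and EPB42 summed to at most 0.413 CPM, with AHSP at 12 and 6 counts in J.gamma1 sh-NC and ALAS2 at 0 in all 8 libraries.

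LIN28B (ENSG00000187772, 4 exons, chr6:104936616-105083332) was expressed in 6T-CEM and was listed at 0 in J.gamma1. The 6T-CEM sh-NC pair held 5657 and 6366 counts of it, the sh-LDB1 pair 6157 and 5696, and each of the 4 J.gamma1 libraries 0. In 6T-CEM sh-NC cells this was 227 ± 12.7 CPM (SD, n = 2), above 92.1% of detected genes per length. Against a floor of 3 counts per library it was at least 2370-fold higher in 6T-CEM than in J.gamma1 sh-NC cells. A total of 5316 genes with a symbol had at least 1000 counts in each 6T-CEM library. Of these, 10 (0.188%) had at most 3 counts in each J.gamma1 library. LIN28B was selected with this contrast known, so the share is a description and no test. Its paralog LIN28A, the form of embryonic stem cells, had at most 6 counts in any library.

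IGF2BP1 (ENSG00000159217, 15 exons, chr17:48997385-49056145), which stabilises oncofetal messages, was the reverse of LIN28B. It was listed at 0 in the 4 libraries of 6T-CEM, and had 2613 and 2630 counts in J.gamma1 sh-NC and 2294 and 2252 in sh-LDB1. At 83.5 ± 0.607 CPM (SD, n = 2) in J.gamma1 sh-NC cells it was at least 737-fold higher there than in 6T-CEM sh-NC cells, against the same floor. In that direction 30 of 5473 genes (0.548%) were on in J.gamma1 and at most at 3 counts in 6T-CEM. LIN28B and IGF2BP1, which both carry 4 seed matches, were thus each found in one line, and not the same one.

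The other IGF2BP genes were found in both lines. IGF2BP3 (ENSG00000136231, chr7:23310209-23470491) had 698 and 689 counts in 6T-CEM sh-NC and 622 and 612 in sh-LDB1, and 1760 and 1739 in J.gamma1 sh-NC against 1942 and 2092 in sh-LDB1. Its sh-NC level was 2.13-fold higher in J.gamma1. IGF2BP2 (ENSG00000073792, chr3:185643130-185825042) was scarce, with 52 and 51 counts in 6T-CEM sh-NC and 39 and 36 in sh-LDB1, and with 104 and 83 in J.gamma1 sh-NC and 51 and 36 in sh-LDB1. In sh-NC cells IGF2BP1, IGF2BP2 and IGF2BP3 were thus each higher in J.gamma1. For IGF2BP2 this was 1.53-fold on few counts, and the counts of IGF2BP3 are uncertain, as given below.

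The HMGA genes encode small proteins that bend AT-rich DNA, and they differed in being on or off. HMGA1 (ENSG00000137309, chr6:34236873-34246231) had 31408 and 32050 counts in 6T-CEM sh-NC, 35359 and 37051 in sh-LDB1, 14803 and 15392 in J.gamma1 sh-NC and 15176 and 16814 in sh-LDB1. Its sh-NC level was 2.49-fold higher in 6T-CEM, and it stood above 99.6% of detected genes there and above 99.2% in J.gamma1, per length. HMGA2 (ENSG00000149948, chr12:65824460-65966291), the fetal form and the gene with the most seed matches per kb of 3′ UTR, had 0 counts in each 6T-CEM library and 2, 0, 2 and 0 in J.gamma1. Both lines were at or under the floor of 3 counts, so no fold is given, and HMGA2 was not detectable at this depth in the line with LIN28B or in the line without it.

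The transcription factors ARID3A and BCL11A were expressed in both lines. ARID3A (ENSG00000116017, chr19:925781-975939), a let-7-controlled factor of fetal B-cell development, had 1182 and 1238 counts in 6T-CEM sh-NC and 1971 and 2042 in sh-LDB1, and 1037 and 885 in J.gamma1 sh-NC against 1310 and 1522 in sh-LDB1. BCL11A (ENSG00000119866, chr2:60450520-60554467) had 1654 and 2058 in 6T-CEM sh-NC, 1965 and 1779 in sh-LDB1, 1132 and 1069 in J.gamma1 sh-NC and 708 and 781 in sh-LDB1. In sh-NC cells ARID3A was 1.49-fold and BCL11A 2.00-fold higher in 6T-CEM.

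**Figure D2:**
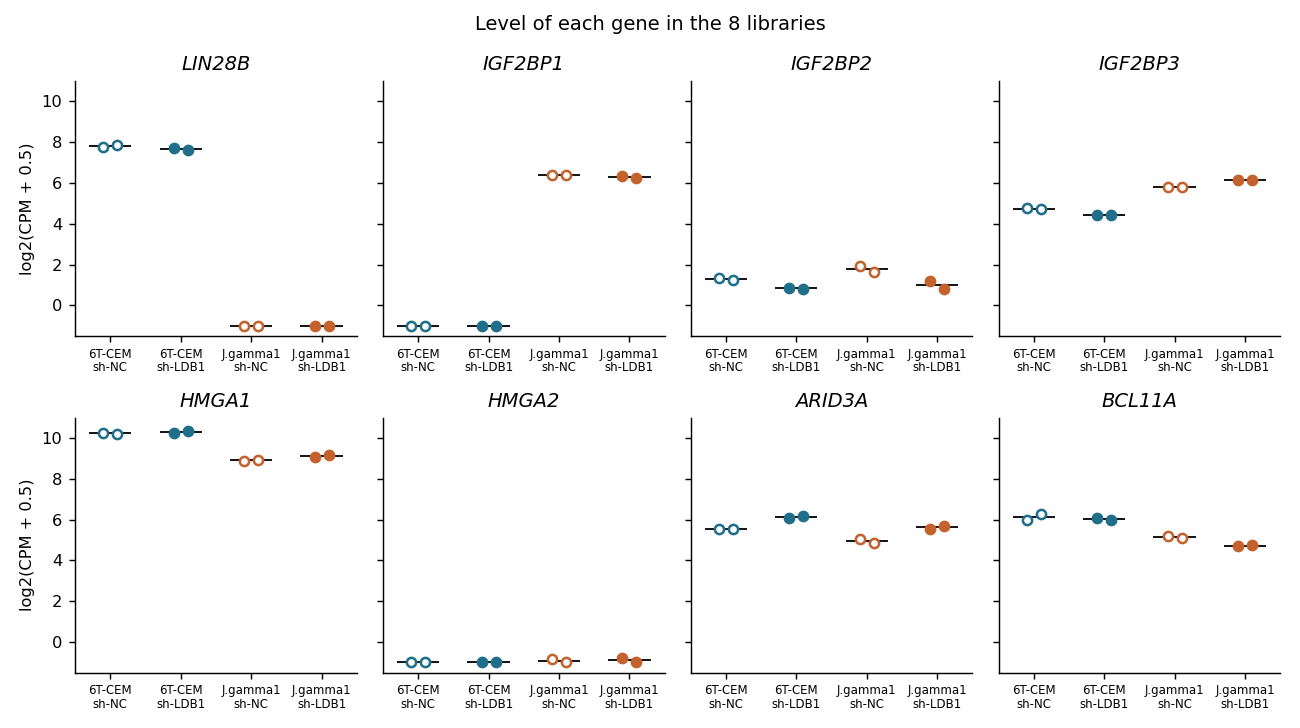
Level of each of the 8 genes as log2(CPM + 0.5) in the 8 libraries; open points are sh-NC, filled points sh-LDB1, and lines the mean of 2 libraries. LIN28B sits near 8 in 6T-CEM and at the bottom in J.gamma1, IGF2BP1 shows the reverse, and HMGA2 is at the bottom in all groups.

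Per length, as RPKM (the CPM per kb of all annotated exons), the order in 6T-CEM sh-NC cells was HMGA1 (515 ± 6.72, SD, n = 2), LIN28B (38.2 ± 2.14), ARID3A (6.33 ± 0.034), IGF2BP3 (3.07 ± 0.112), BCL11A (2.85 ± 0.362) and IGF2BP2 (0.365 ± 0.015), with IGF2BP1 and HMGA2 at 0. In that line IGF2BP3 and BCL11A overlapped in their libraries. In J.gamma1 sh-NC cells it was HMGA1 (207 ± 6.25), IGF2BP1 (8.67 ± 0.063), IGF2BP3 (6.53 ± 0.0379), ARID3A (4.24 ± 0.463), BCL11A (1.43 ± 0.054) and IGF2BP2 (0.558 ± 0.0872), and no neighbours among these 6 overlapped. The middle of the order depended on the gene length used, since the annotated exons span 24514 bases for BCL11A and 8535 for IGF2BP3 but their canonical transcripts 6102 and 4274. With canonical transcripts, a choice made after the values were seen, BCL11A came to 11.5 ± 1.45 and above ARID3A in 6T-CEM, and IGF2BP3 passed IGF2BP1 in J.gamma1 at 13.0 ± 0.0756 against 9.49 ± 0.069. HMGA1 came first with either length in both lines.

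With LDB1 knockdown in 6T-CEM, ARID3A rose, IGF2BP3 passed the threshold downwards by a narrow margin, and 4 further members that could be tested, LIN28B among them, did not pass it. Of the 6 members tested with edgeR, 1 was called higher, where 15.1% of 16059 genes were, and 1 lower, where 16.2% were, at an adjusted p under 0.05. The groups did not overlap for 4 of the 6, including LIN28B, as was so for 65.3% of all genes tested. The median log2 fold change of the 6 was −0.12, beside 0.00 for all genes tested.

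In J.gamma1, 3 of the 6 members tested rose (ARID3A, IGF2BP3 and HMGA1) and 2 fell (BCL11A and IGF2BP2), while IGF2BP1 did not pass the threshold. Over all 17215 genes tested in that line 25.0% were called higher and 26.5% lower, and calls among the members are to be read against these shares. The groups overlapped for no member of the 6, beside 76.0% of all genes tested without overlap, and the median log2 fold change was 0.08, beside 0.00 for all genes. With all libraries in the fit no tested member changed beyond 1 on the log2 scale in either line, a size that, together with the adjusted p, 5.13% of all 6T-CEM genes and 13.9% of those of J.gamma1 passed. In bulk samples fewer cells that express a gene and less RNA per cell cannot be told apart.

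ARID3A was the member that rose in both lines. Its level went from 45.7 ± 0.245 to 69.1 ± 2.72 CPM in 6T-CEM and from 30.6 ± 3.34 to 49.1 ± 3.40 CPM in J.gamma1 (SD, n = 2). The log2 fold change by edgeR was 0.61 (SE 0.073, adjusted p = 1.89e-05) in 6T-CEM and 0.70 (SE 0.092, adjusted p = 9.29e-05) in J.gamma1, or 1.52-fold and 1.63-fold. Both sh-LDB1 libraries lay above both sh-NC libraries in each line. The difference between the lines was 0.09 on the log2 scale, with a 95% interval from −0.17 to 0.35 (edgeR, adjusted p = 0.649). Among all genes tested its log2 fold change was above 89.8% of those of 6T-CEM and above 85.9% of those of J.gamma1.

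LIN28B had a log2 fold change of −0.14 (SE 0.059) in 6T-CEM, from 227 ± 12.7 to 204 ± 8.30 CPM, with both sh-LDB1 libraries below both sh-NC libraries. The edgeR adjusted p was 0.0834 and the 95% interval ran from −0.27 to −0.02 before adjustment over genes. In fits without any one library the value lay between −0.20 and −0.08. In the sh-LDB1 cells, where LDB1 was at 0.331 of its sh-NC level, LIN28B stood above 91.5% of detected genes per length. In J.gamma1 the change of LIN28B could not be tested, since no library held a count, and neither could the difference between the lines.

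IGF2BP1 had a log2 fold change of −0.06 (SE 0.060, 95% interval −0.19 to 0.07, edgeR adjusted p = 0.441) in J.gamma1, the only line where it could be tested. The level there was 83.0 and 83.9 CPM in sh-NC and 81.8 and 76.3 CPM in sh-LDB1. Neither LIN28B nor IGF2BP1, the members found in one line each, passed the threshold, and neither could be compared across lines.

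IGF2BP3 differed between the lines. It fell from 26.2 ± 0.957 to 21.2 ± 0.0612 CPM in 6T-CEM and rose from 55.7 ± 0.323 to 70.1 ± 1.11 CPM in J.gamma1, without overlap of the groups in either line. The log2 fold change by edgeR was −0.29 (SE 0.101, adjusted p = 0.0397) in 6T-CEM and 0.35 (SE 0.063, adjusted p = 0.000791) in J.gamma1. The difference itself was 0.64 (SE 0.096, adjusted p = 0.000526), and it was the single member of 5 tested for a difference that passed, where 24.4% of 18552 genes did. The fall in 6T-CEM did not pass the threshold in 8 of 11 alternative fits, with values from −0.32 to −0.25 and adjusted p from 0.00882 to 0.203, whereas the rise in J.gamma1 passed in all 11 and the difference in all 14 run.

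IGF2BP3 shares 1521 exon bases with MALSU1, a mitochondrial ribosome assembly gene on the opposite strand, and it is not stated whether counting used the strand, so its counts are uncertain. MALSU1 had 854 and 964 counts in 6T-CEM sh-NC, 812 and 827 in sh-LDB1, 963 and 999 in J.gamma1 sh-NC and 884 and 936 in sh-LDB1. Its log2 fold change by edgeR was −0.27 (SE 0.092, adjusted p = 0.0363) in 6T-CEM, near that of IGF2BP3, and 0.04 (SE 0.077, adjusted p = 0.721) in J.gamma1, where IGF2BP3 rose. The part of shared reads in these values was not tested.

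IGF2BP2 had negative values in both lines, which rest on few reads. The log2 fold change by edgeR was −0.58 (SE 0.324, adjusted p = 0.199) in 6T-CEM and −0.95 (SE 0.301, adjusted p = 0.0216) in J.gamma1, and only the second passed. It did not pass in J.gamma1 with DESeq2 (adjusted p = 0.0756), without a filter on low counts (0.0507), without sh-NC replicate 1 (0.104, log2 fold change −0.78) or without sh-LDB1 replicate 2 (0.135, log2 fold change −0.69). It passed without sh-NC replicate 2 (0.0168, log2 fold change −1.11) and without sh-LDB1 replicate 1 (0.0193, log2 fold change −1.26), so its size ranged from −1.26 to −0.69 with the library left out.

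HMGA1 rose in J.gamma1 by 0.23 on the log2 scale (SE 0.045, edgeR adjusted p = 0.00156), from 481 ± 14.6 to 555 ± 19.8 CPM, and had a value of 0.07 (SE 0.054, adjusted p = 0.373) in 6T-CEM, where the groups overlapped. The difference of 0.16 between the lines had an edgeR adjusted p of 0.110. Reads of its 8 annotated processed copies were few, at most 33 counts in any library for any copy.

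BCL11A fell in J.gamma1 by 0.42 on the log2 scale (SE 0.080, edgeR adjusted p = 0.00126), from 35.0 ± 1.32 to 25.8 ± 0.842 CPM. In 6T-CEM the value was −0.11 (SE 0.089, adjusted p = 0.400), with overlapping groups, since sh-NC gave 63.7 and 76.2 CPM and sh-LDB1 gave 67.0 and 61.9 CPM. Without 6T-CEM sh-NC replicate 2 the value there turned to 0.03, so its sign rests on that library. The difference between the lines was −0.31 (SE 0.127) with an edgeR adjusted p of 0.0989, and it passed, at −0.44 and 0.0231, without that library.

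**Figure D3:**
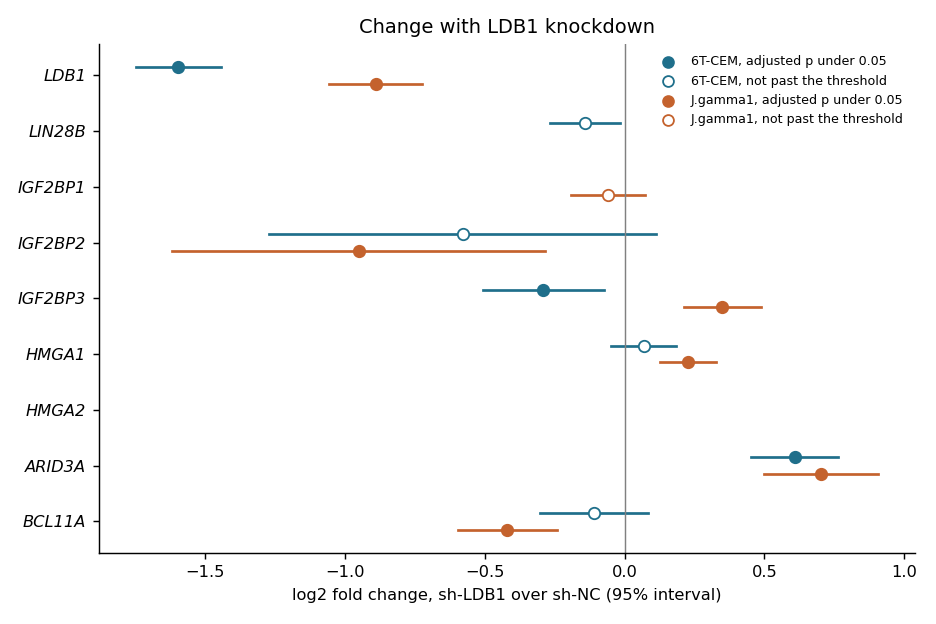
Log2 fold change of LDB1 and the 8 genes with knockdown, sh-LDB1 over sh-NC, with 95% intervals that are not adjusted over genes; blue is 6T-CEM, orange J.gamma1, and filled points have an edgeR adjusted p under 0.05. ARID3A lies to the right in both lines, IGF2BP3 lies on opposite sides, and LIN28B, IGF2BP1 and HMGA2 have no point in the lines where they are at or under the floor.

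The genes around LIN28B were read for whether the whole region followed it. Of 14 annotated genes within 500 kb, 3 had a mean of at least 10 counts. HACE1, a ubiquitin ligase whose start lies at −76.7 kb from that of LIN28B, had 874 and 864 counts in 6T-CEM sh-NC and 1311 and 1167 in J.gamma1 sh-NC. PREP, a peptidase whose start lies at 517.4 kb, had between 2754 and 2955 counts in all 8 libraries. BVES, which encodes a membrane protein of muscle and epithelium and starts 200.5 kb after LIN28B, was the mirror image, with 0 counts in each 6T-CEM library and 675 and 571 in J.gamma1 sh-NC. The contrast between the lines at LIN28B was therefore not shared by the expressed genes on either side.

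With knockdown, edgeR gave HACE1 a log2 fold change of −0.25 (SE 0.091, adjusted p = 0.0520) in 6T-CEM and −0.53 (SE 0.093, adjusted p = 0.000711) in J.gamma1. BVES fell in J.gamma1, to 336 and 386 counts, by 0.64 on the log2 scale (SE 0.122, edgeR adjusted p = 0.00117). PREP had −0.08 (SE 0.064, adjusted p = 0.384) in 6T-CEM and rose by 0.18 (SE 0.056, adjusted p = 0.0210) in J.gamma1. Around IGF2BP1, a region added after its values were seen, 19 of 69 annotated genes had a mean of at least 10 counts, and HOXB13 was the single one of them with at most 3 counts in every 6T-CEM library.

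**Figure D4:**
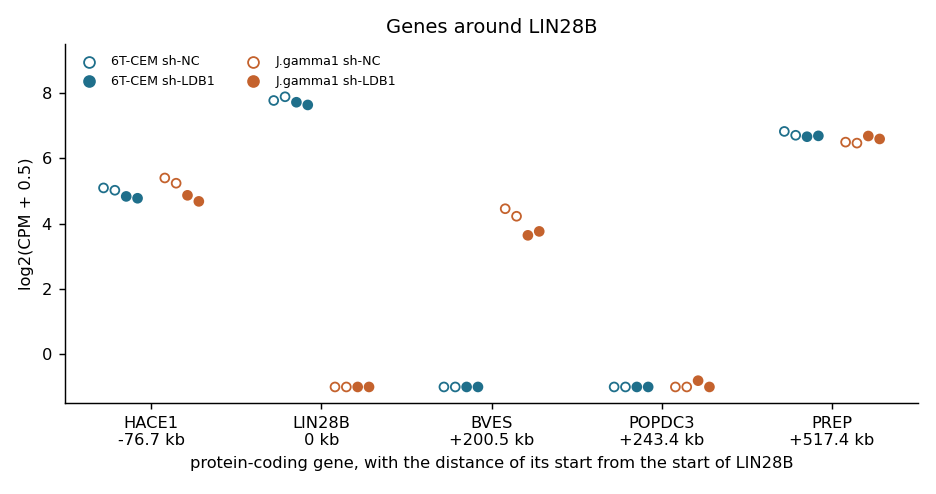
Level as log2(CPM + 0.5) of LIN28B and the protein-coding genes around it in the 8 libraries, in order along the chromosome with the distance of each start from that of LIN28B in kb; blue is 6T-CEM, orange J.gamma1, open points sh-NC and filled points sh-LDB1. LIN28B is high in 6T-CEM only, BVES is present in J.gamma1 only, and HACE1 and PREP are present in both.

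The genes whose pattern was most like LIN28B were ranked by Euclidean distance in log2(CPM + 0.5) over the 4 6T-CEM libraries, among 35458 genes with a symbol and at most 3 counts in each J.gamma1 library. They were the noncoding RNA XIST (distance 0.824), MEF2C (1.02), DOCK8 (2.87), the T-cell receptor segment TRBV3-1 (2.88) and TES (3.07). This distance takes in level as well as change, so a small one does not show a shared change with knockdown. MEF2C, a transcription factor that marks immature T-ALL, had 3474 and 3824 counts in 6T-CEM sh-NC and 5925 and 5434 in sh-LDB1, and at most 3 in J.gamma1. DOCK8, an exchange factor of lymphocytes, had 1937 and 2355 in sh-NC and 2230 and 2292 in sh-LDB1.

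The other genes of the pathway were taken as 7 lists of 90 distinct genes. In 6T-CEM 55 of them could be tested, of which 15 (27.3%) were higher and 17 (30.9%) lower by edgeR, and in J.gamma1 63 could be tested, of which 23 (36.5%) were higher and 20 (31.7%) lower. Both directions were thus about as frequent as each other, and the median log2 fold change was 0.04 in each line. The same shares over all genes tested were 15.1% and 16.2% in 6T-CEM and 25.0% and 26.5% in J.gamma1. The lists were not matched to other genes on expression.

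Genes that process let-7 moved in both directions. Of 20 genes, 19 of which could be tested in each line, 6 rose and 5 fell in 6T-CEM and 7 rose and 6 fell in J.gamma1. Calls over all genes tested also went both ways, with 15.1% higher and 16.2% lower in 6T-CEM and 25.0% and 26.5% in J.gamma1. AGO4, an Argonaute protein that holds mature microRNA, showed the largest change of the list. In J.gamma1 it went from 3052 and 2880 to 684 and 790 counts. Its log2 fold change was −1.86 there (SE 0.074, edgeR adjusted p = 1.52e-08) and −0.43 (SE 0.095, adjusted p = 0.00301) in 6T-CEM.

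The enzymes that act with LIN28B on the let-7 precursor were singled out after their values were seen. TUT4, which adds the uridine tail to the precursor that LIN28 proteins hold, fell by 0.23 on the log2 scale (SE 0.069, edgeR adjusted p = 0.0212) in 6T-CEM and by 0.83 (SE 0.072, adjusted p = 4.76e-06) in J.gamma1. TUT7, its partner in tailing, had −0.07 (SE 0.095, adjusted p = 0.656) in 6T-CEM and fell by 0.52 (SE 0.087, adjusted p = 0.000496) in J.gamma1. DIS3L2, which degrades the tailed precursor, had 0.21 (SE 0.087, adjusted p = 0.0879) in 6T-CEM and rose by 0.56 (SE 0.125, adjusted p = 0.00315) in J.gamma1. DICER1, which cuts the precursor, rose by 0.28 (SE 0.054, adjusted p = 0.00114) and 0.55 (SE 0.062, adjusted p = 3.1e-05).

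Of 6 host genes of let-7 loci, MIR99AHG and MIR100HG were at 0 in all libraries. WDR82, which overlaps the let-7g locus, rose by 0.33 (SE 0.052, edgeR adjusted p = 0.000195) in 6T-CEM and 0.26 (SE 0.043, adjusted p = 0.000429) in J.gamma1. HUWE1, which holds let-7f-2 and miR-98, had 0.05 (SE 0.060, adjusted p = 0.567) and −0.21 (SE 0.087, adjusted p = 0.0901). MIRLET7A1HG, added after its values were seen, had between 21 and 82 counts in any library. Its log2 fold change was 0.623 (SE 0.307, edgeR adjusted p = 0.144) in 6T-CEM and 0.845 (SE 0.432, adjusted p = 0.127) in J.gamma1. MIRLET7BHG was at 0 in 6T-CEM and had at most 15 counts in J.gamma1.

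Of 24 further let-7 targets, 19 were tested in 6T-CEM, of which 3 rose and 8 fell. In J.gamma1 22 were tested, of which 8 rose and 8 fell. Over all genes tested, 15.1% were higher and 16.2% lower in 6T-CEM, and 25.0% and 26.5% in J.gamma1. MYCN, a growth-driving transcription factor, had 394 and 382 counts in 6T-CEM sh-NC and 217 and 149 in sh-LDB1, and 616 and 564 in J.gamma1 sh-NC and 20 and 30 in sh-LDB1. Its log2 fold change was −1.21 (SE 0.178, edgeR adjusted p = 0.000127) in 6T-CEM and −4.41 (SE 0.196, adjusted p = 3.35e-08) in J.gamma1. CDC25A, a phosphatase that starts DNA replication, fell by 0.86 (SE 0.065, adjusted p = 1.74e-07) in 6T-CEM and fell by 1.42 (SE 0.058, adjusted p = 1.87e-08) in J.gamma1. PRDM1, a repressor of lymphocyte proliferation, rose by 1.01 (SE 0.276, adjusted p = 0.0106) in J.gamma1 and had at most 1 count in 6T-CEM.

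Over all tested genes with a 3′ UTR, the share called was also counted for those with a seed match, with no test of the difference. In 6T-CEM 16.9% of 1310 genes with a match were higher and 19.7% lower, beside 17.5% and 19.8% of all 11989. In J.gamma1 26.4% of 1412 were higher and 34.5% lower, beside 27.7% and 31.6% of all 12815. The median log2 fold change of 6T-CEM was −0.01 for genes with a match and −0.01 for all, and that of J.gamma1 was −0.06 for genes with a match and −0.02 for all.

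Of 12 fetal growth and IGF genes, 6 had at most 3 counts in every 6T-CEM library and 4 in every J.gamma1 library. Of the 6 tested in 6T-CEM 2 rose and 1 fell, and of the 7 tested in J.gamma1 1 rose and 3 fell. The shares of all genes tested were 15.1% higher and 16.2% lower in 6T-CEM, and 25.0% higher and 26.5% lower in J.gamma1. IGF2, H19, IGF1 and DLK1 were at 0 in all 8 libraries. IGF2R, the receptor that clears IGF2, fell by 0.51 (SE 0.063, edgeR adjusted p = 2.34e-05) in 6T-CEM and 0.83 (SE 0.053, adjusted p = 4.77e-07) in J.gamma1. IGF1R, the signalling receptor, had 0.03 (SE 0.096, adjusted p = 0.859) in 6T-CEM and fell by 0.74 (SE 0.073, adjusted p = 1.13e-05) in J.gamma1.

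The globin genes, which BCL11A controls in red cells, were at or near 0. HBG1 and HBG2, the fetal globins, had at most 6 counts in any library, in both lines and with or without knockdown. HBQ1 had 103 and 132 counts in J.gamma1 sh-NC and 93 and 149 in sh-LDB1, and 0 in 6T-CEM, and HBA1 had at most 20 counts. The fall of BCL11A in J.gamma1 was thus seen in cells where fetal globin could not be read at this depth.

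Of 14 further factors of the globin switch, 11 were tested in 6T-CEM, of which 4 rose and 2 fell. In J.gamma1 13 were tested, of which 7 rose and 4 fell. Beside these counts, 15.1% of all genes tested were higher and 16.2% lower in 6T-CEM, and 25.0% and 26.5% in J.gamma1. MYB, which the globin switch and T-ALL cells share, fell by 0.94 (SE 0.051, edgeR adjusted p = 7.3e-09) in 6T-CEM and by 2.63 (SE 0.053, adjusted p = 1.93e-10) in J.gamma1. NFIA rose by 1.61 (SE 0.498, adjusted p = 0.0226) in 6T-CEM, from 9 and 11 to 27 and 40 counts, and by 0.83 (SE 0.131, adjusted p = 0.000338) in J.gamma1. KLF1, the red-cell activator of BCL11A, fell in J.gamma1 from 15 and 31 to 0 and 5 counts (edgeR adjusted p = 0.0182), too few for a firm size.

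Of 10 pluripotency genes, 7 had at most 3 counts in every library of a line, in each line, so LIN28B in 6T-CEM was not accompanied by POU5F1, NANOG or L1TD1, which were at 0. DNMT3B, a DNA methyltransferase, was the expressed member and fell by 0.82 (SE 0.076, edgeR adjusted p = 1.42e-06) in 6T-CEM and 0.24 (SE 0.077, adjusted p = 0.0219) in J.gamma1. SALL4 had at most 8 counts.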

How the data were processed

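Messenger RNA was measured in 8 libraries of 2 cell lines. The authors aligned reads to hg38 with HISAT2 2.2.0, counted genes with StringTie and deposited 1 table of raw counts per gene for each line. The annotation release, strand setting and conversion of coverage to counts are not given in the sources used here. The authors tested with DESeq2.

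Both tables were joined by Ensembl identifier, and 56105 of 64252 genes had a symbol. Each line was fitted by itself with edgeR 4.0.16 in R 4.3.3 (quasi-likelihood test, TMM, filterByExpr, Benjamini-Hochberg adjustment over all genes tested), and differences between lines as an interaction over 8 libraries. CPM used TMM factors, and DESeq2 1.42.0 was an alternative. Standard errors came from the fold change and its F statistic, and 95% intervals from the same fit. Scripts were tested on simulated data. Positions and 3′ UTRs are from GENCODE release 44, and microRNAs from RefSeq, both on GRCh38. Counts of 0 allow up to 3 counts, for counting error only.

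The members and lists were chosen with earlier results of these data known. Named genes were the members, LDB1, list genes past an adjusted p of 0.05 and a log2 fold change beyond 1 (at most 5 a list, or the 2 highest), LIN28B neighbours within 500 kb with a mean of 10 counts, and 5 genes with the pattern most like LIN28B.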

Additional observations from a re-analysis of the deposited data

Results flagged for a closer look

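IGF2BP3 had log2 fold changes of opposite sign with LDB1 knockdown in the lines. The difference, J.gamma1 minus 6T-CEM, was 0.64 on the log2 scale (SE 0.096, edgeR adjusted p = 0.000526). Its fall in 6T-CEM depended on the fit, and did not pass with DESeq2 (adjusted p = 0.138). Its counts are uncertain, since it shares exon bases with MALSU1. The knockdown of LDB1 itself was weaker in J.gamma1, by 0.70 (SE 0.095, edgeR adjusted p = 0.000237).

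Of the list genes, AGO4 (−1.44), MYCN (−3.20), CDC25A (−0.56), IGF2R (−0.33), IGF1R (−0.77) and MYB (−1.69) had lower log2 fold changes in J.gamma1 than in 6T-CEM, with edgeR adjusted p of 7.25e-06, 1.72e-05, 0.000484, 0.0113, 0.000533 and 6.23e-08. DNMT3B fell by more in 6T-CEM, a difference of 0.58 (edgeR adjusted p = 0.00192). Of 59 list genes tested for a difference, 13 were called with a higher and 18 with a lower log2 fold change in J.gamma1. These calls used an edgeR adjusted p under 0.05. By the same threshold, 2217 of all 18552 genes tested were called higher and 2307 lower, 24.4% in either direction. MYC (0.97, edgeR adjusted p = 1.49e-06) and FAS (0.64, edgeR adjusted p = 0.00174), chosen after their values were seen, were the list genes called lower in 6T-CEM and higher in J.gamma1. Among the processing genes singled out, the difference was −0.61 for TUT4, −0.46 for TUT7 and 0.27 for DICER1 (edgeR adjusted p = 0.00128, 0.0206 and 0.0275), and it was 0.26 for PREP, near LIN28B (edgeR adjusted p = 0.0391). Groups of 2 libraries are too small to test a single library for standing apart.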

How the results depend on the processing

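ARID3A and LDB1 kept an adjusted p under 0.05 in both lines in every alternative fit, but ARID3A in both lines and LDB1 in J.gamma1 (−0.89) are short of a log2 fold change beyond 1. The member called lower in 6T-CEM, IGF2BP3, was lost (0 lower) with DESeq2, library totals alone, no filter on low counts and the replicate block, and also (0 lower) in each of the 4 fits that left out a library. Members lower in J.gamma1 came to 1 with DESeq2 and without the filter, and to 1 to 2 with a library left out. With a fold change beyond 1 as well, 0 members were called in either line, and of list genes 1 higher and 1 lower in 6T-CEM and 1 higher and 5 lower in J.gamma1. Members whose change differed between the lines came to 1 to 2 higher and 0 to 1 lower with a library left out, by HMGA1 (0.22) without 6T-CEM sh-LDB1 replicate 2 and BCL11A (−0.44) without 6T-CEM sh-NC replicate 2. With a library left out, BCL11A in 6T-CEM lay between −0.23 and 0.03 and the difference of ARID3A between −0.02 and 0.21, turning in sign without 6T-CEM and J.gamma1 sh-NC replicate 2 respectively. Calls over all genes of 6T-CEM went from 2425 higher and 2598 lower to 1572 and 1662 without sh-NC replicate 1 and to 1638 and 1701 without sh-NC replicate 2. In these fits the lone library of a group is assumed to vary like the others. Same-numbered libraries did not deviate together (correlations −0.018 and −0.036). Whether they were prepared together is not stated, and these values cannot decide it. The replicate block gave 2443 higher and 2627 lower in 6T-CEM, gave IGF2BP3 in 6T-CEM a log2 fold change of −0.29 (edgeR adjusted p = 0.0546) and changed no other call of a member or of LDB1. The causes of these shifts were not tested. With 2 libraries per group, small changes such as that of LIN28B, and members at 0, cannot be resolved at this depth.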
